A study of Mus musculus with 3 samples.

Results

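The genes described here encode the proteasome of mouse spleen monocytes and macrophages. They were chosen by name, as the genes whose symbol is Psma, Psmb, Psmc, Psmd, Psme, Psmf or Psmg followed directly by a number, among probe sets that the platform annotation gives 1 symbol. This found 47 genes on 100 probe sets, of 18193 genes in all. Of the 5 genes set apart as immunoproteasome genes, 4 met the rule, namely Psmb8, Psmb9, Psmb10 and Psme1, and Psme2 did not because its probe set is annotated to the near-identical Psme2b as well. The other 43 genes are called standard members below.

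RNA came from 3 sorted populations of adult Spic(igfp/+) mice, whose GFP marks cells that express Spic, and each population was measured on 1 Affymetrix array. Spic-negative monocytes and Spic-positive monocytes were CD11b and Ly6C positive spleen cells without and with GFP, and red pulp macrophages were high for F4/80 and for GFP. All 3 groups carried the same reporter genotype, and the labels do not say how many mice stand behind an array. With 1 array per group there is no spread between animals, so every difference below is a size between single arrays and no test could be run. The number of arrays limits the precision.

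The proteasome is the barrel-shaped protease that degrades ubiquitin-tagged proteins. Its core particle stacks rings of alpha subunits on rings of beta subunits, and a regulatory particle with a ring of ATPases unfolds substrates and feeds them in. In cells exposed to interferon gamma, and constitutively in many blood cells, the catalytic beta subunits are exchanged for immunoproteasome subunits, which shift the peptides made for display on MHC class I. Red pulp macrophages engulf old erythrocytes and return their iron to the body, and both monocytes and macrophages present peptides on class I.

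The stretches of DNA printed next lie before members described below and show how the immunoproteasome and standard genes are laid out. On chromosome 17, Psmb9, Tap1, Psmb8 and Tap2 are neighbours with 0 other genes between each adjacent pair, and Psmb9 and Tap1, a subunit of the peptide transporter, are read in opposite directions from the same 225 bases. Psmb5 is the constitutive counterpart of Psmb8, and Psmd12 is a standard member with a larger difference, chosen after its values were seen. Each sequence is from RefSeq, build GRCm38.p6, is written 5′ to 3′ on the strand of the gene, and ends at the base before its start. Capitals mark the letters TGACNNNGC (antioxidant response element) or TTCNNNGAA (interferon gamma activated site), searched on both strands. A further pattern, the interferon regulatory factor element, was also searched and is in none of the printed stretches, and each stretch holds at most 1 match.
Psmb9 and Tap1, chr17:34187331-34187555, minus strand: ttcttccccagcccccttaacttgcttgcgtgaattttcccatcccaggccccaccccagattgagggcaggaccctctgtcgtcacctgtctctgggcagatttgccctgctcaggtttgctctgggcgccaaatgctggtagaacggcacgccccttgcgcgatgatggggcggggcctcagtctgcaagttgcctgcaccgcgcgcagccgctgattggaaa
Psmb8, chr17:34197945-34198194, plus strand: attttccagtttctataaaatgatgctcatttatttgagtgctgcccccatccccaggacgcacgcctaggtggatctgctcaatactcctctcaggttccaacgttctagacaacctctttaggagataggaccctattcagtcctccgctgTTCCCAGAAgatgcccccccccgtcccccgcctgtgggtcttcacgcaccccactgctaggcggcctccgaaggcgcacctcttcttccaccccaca
Psmb5, chr14:54617996-54618245, minus strand: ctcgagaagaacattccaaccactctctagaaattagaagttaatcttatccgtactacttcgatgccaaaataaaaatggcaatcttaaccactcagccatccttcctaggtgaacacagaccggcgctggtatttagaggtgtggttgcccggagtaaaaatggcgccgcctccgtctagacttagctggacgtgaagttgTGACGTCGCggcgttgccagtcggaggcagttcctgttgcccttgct
Psmd12, chr11:107479278-107479527, plus strand: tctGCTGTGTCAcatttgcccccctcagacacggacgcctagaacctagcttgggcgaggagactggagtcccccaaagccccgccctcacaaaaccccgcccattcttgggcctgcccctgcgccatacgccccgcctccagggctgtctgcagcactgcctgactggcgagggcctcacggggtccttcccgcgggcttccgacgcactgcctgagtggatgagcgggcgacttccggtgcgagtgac

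The capitals in Psmb8 are an interferon gamma activated site that begins 97 bases before the gene's start, and those in Psmb5 are an antioxidant response element that begins 47 bases before it. In Psmd12 the antioxidant response element lies on the other strand, 247 bases before the start. Of the 47 members, 39 had a promoter in the RefSeq table, on 41 windows of which the 250 bases before the start were searched. Psma8, Psmb1, Psmb2, Psmb7, Psmc3, Psmd3, Psmd7 and Psmg2 had none. The antioxidant response element was found before Psmb5, Psmb6, Psmc6, Psmd9 and Psmd12, in 12.2% of member windows against 10.2% of all 32851 windows. The interferon regulatory factor element was found before Psmb3, Psmd4 and Psmd9 (7.32% against 2.98%), and the interferon gamma activated site before Psmb8 and Psmg1 (4.88% against 7.02%). Such matches describe letters and not binding. Over the 5 members with the antioxidant response element, the difference between macrophages and Spic-negative monocytes ran from -0.12 to 1.33 on the log2 scale with a median of 0.97, and over the 33 others with a window and above the floor from -1.30 to 1.73 with a median of 0.48, so the ranges overlapped. For the interferon regulatory factor element the medians were 0.85 (3 members) and 0.48 (35 others). The values of those 3 members, 0.60 to 0.97, lay inside the range of the others, -1.30 to 1.73. For the interferon gamma activated site the medians were 0.59 (2 members) and 0.59 (36 others).

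Levels are log2 expression values, so a difference of 1 is 2-fold. Values at or under log2 5.02, the middle of the non-control probe sets, were treated as a floor, and 46 of the 47 members had at least 1 array above it, as did 12375 of all genes. Psmb11, the catalytic subunit of the thymus, lay below it on all 3 arrays, with 3.51, 4.23 and 3.72 for Spic-negative monocytes, Spic-positive monocytes and macrophages. Psma8, an alpha subunit known from testis, measured 4.69, 4.62 and 6.31 in the same order, so that it passed the floor through the macrophage array alone. The other 45 members were above the floor on every array. The sorted populations carried the genes of their sort: Spic measured 5.66, 9.22 and 12.23, Itgam (CD11b) 8.68, 7.38 and 5.23, and Adgre1 (F4/80) 10.77, 10.67 and 12.50, in the order Spic-negative monocytes, Spic-positive monocytes and macrophages, which is kept for every set of 3 values below.

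**Figure D1:**
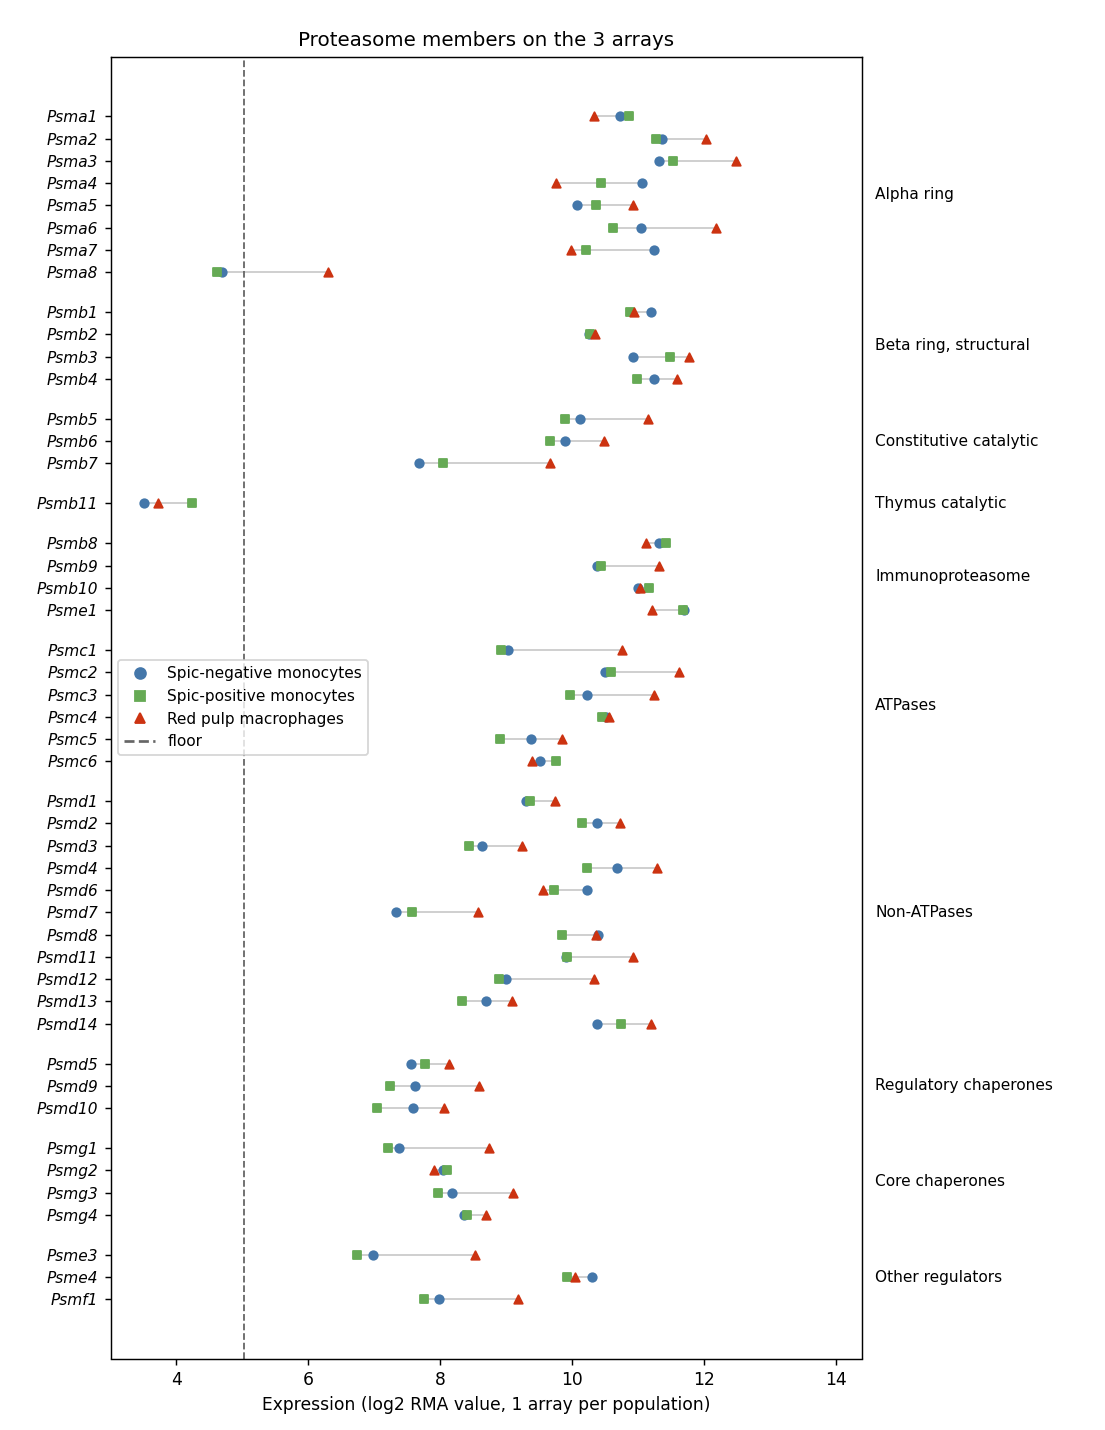
Levels of the 47 members (rows, grouped by role) on the 3 arrays, as log2 expression on the horizontal axis, with 1 point per array and a dashed line at the floor of 5.02. Macrophages hold the highest value for 34 of the 46 members above the floor, and the immunoproteasome members other than Psmb9 do not follow them.

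Most standard proteasome genes had their highest value on the macrophage array. Of the 42 standard members above the floor, 33 lay above 0 against Spic-negative monocytes and 9 below, and against Spic-positive monocytes 36 lay above 0 and 6 below. The median standard member above the floor (42 genes) was 0.61 higher in macrophages than in Spic-negative monocytes, against 0.03 for all 12375 genes, and 0.78 higher than in Spic-positive monocytes, against 0.10 for all genes. The same medians over all 43 standard members, with no floor, were 0.60 and 0.76. The 4 immunoproteasome members had medians of -0.08 and -0.22 in the same comparisons, and of 0.13 and 0.0040 when the probe sets of a gene were averaged. The 3 comparisons use the same 3 arrays, so each shares an array with the others.

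Of the 46 members, 14 (30.4%) were at least 2-fold higher in macrophages than in Spic-negative monocytes, against 19.6% of all genes, and 2 (4.35%) were at least 2-fold lower, against 11.3%. A difference above 0 was found for 35 of 46 members (76.1%) and for 51.8% of all genes. Against Spic-positive monocytes, 17 members (37.0%) were at least 2-fold higher, where 22% of all genes were, and 0 were 2-fold lower, where 11.6% of all genes were. There 37 of 46 members lay above 0, as did 53.8% of all genes. At a lower threshold of 1.5-fold, 24 members were higher than in Spic-negative monocytes (29.5% of all genes were) and 1 was lower than in Spic-positive monocytes (24.5% of all genes were). Macrophages held the highest of the 3 values for 34 members (73.9%) and for 45.5% of all genes. The 2-fold counts depend on which probe set stands for a gene: with the mean of a gene's probe sets, 8 members (17.4%) were 2-fold higher than in Spic-negative monocytes, against 16.4% of all genes, a share near the background, and 10 (21.7%) were 2-fold higher than in Spic-positive monocytes, against 18.0%. The median standard member was then 0.46 higher than in Spic-negative monocytes, against -0.02 for all genes. Psma8, which passed the floor through the macrophage array alone, is in both 2-fold counts, which are 13 of 45 (28.9%) and 16 of 45 (35.6%) without it.

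Marker lists of other cells differed between the arrays, in both directions. Erythroid markers (10 of 12 with a value) had a summed level of log2 8.34, 9.65 and 12.99, with 8, 6 and 2 of them at or below the floor, and NK cell markers (6 of 7) summed to 7.47, 7.74 and 10.56. B cell markers (9 of 10) summed to 9.19, 11.26 and 10.87, T cell markers (6 of 8) to 8.10, 8.21 and 8.99, and plasma cell markers (6 of 6) to 13.18, 13.11 and 13.81. The summed levels of dendritic cell markers (6 of 7), at 10.12, 11.72 and 9.99, and neutrophil markers (7 of 8), at 14.69, 14.79 and 14.56, were lowest on the macrophage array. The brightest genes weigh most in such sums, and single genes were split. Against Spic-negative monocytes, 3 of the 5 dendritic genes above the floor were higher in macrophages and 2 lower, with a median difference of 1.23. Of the 7 neutrophil genes, 3 were higher and 4 lower. Cell cycle genes (11 of 12) summed to 11.77, 12.09 and 13.81. Of the 11, 10 were at least 2-fold higher in macrophages than in Spic-negative monocytes, where 19.6% of all genes were. The part of these cells, or of cycling, in the proteasome differences was not tested, and in sorted bulk RNA fewer cells of a type and less RNA per cell cannot be told apart. The Spic-positive array also had 18 of 18 hybridization controls above their Spic-negative values, by a median of 2.16, and the Gapdh control probe sets, 3′ minus 5′, gave 0.48, 2.25 and 1.61. The beta-actin controls, 3′ minus 5′, gave 0.74, 0.57 and 1.13, so the 2 sets of controls differed on the Spic-positive array. Their part in the differences was not tested either.

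**Figure D2:**
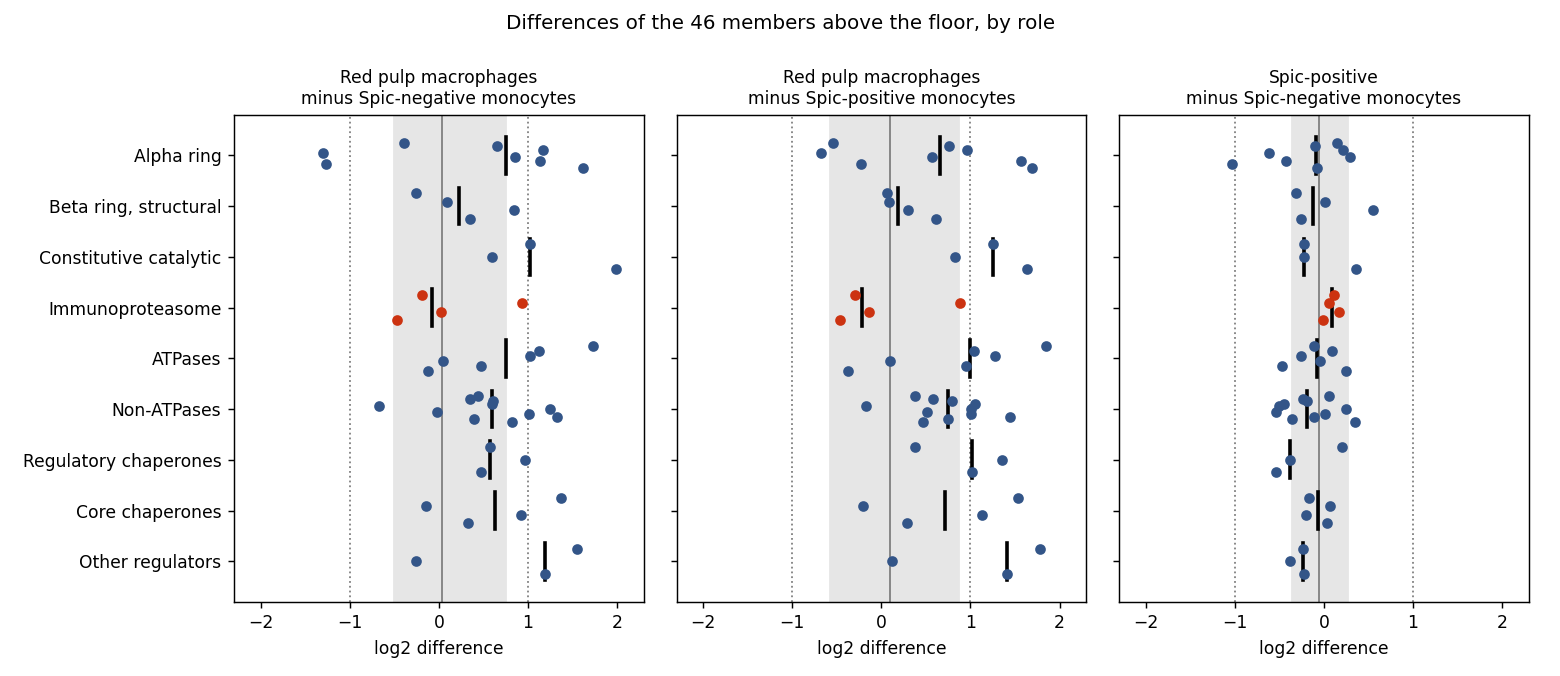
Log2 differences of the 46 members above the floor (points) by role, for macrophages against each monocyte population and between the monocyte populations. Black bars are medians of a role, the grey band and line are the middle 50 percent and the median of all 12375 genes, and dotted lines mark 2-fold. Most roles lie to the right of the grey line in both macrophage panels, immunoproteasome members (red) lie around it apart from Psmb9, and in the monocyte panel only Psma7 passes 2-fold.

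The alpha ring, which forms the gate of the core particle, was divided. Psma3 measured 11.32, 11.53 and 12.49 and Psma6 11.05, 10.62 and 12.19, so they were 2.25-fold and 2.20-fold higher in macrophages than in Spic-negative monocytes. A dimmer probe set of Psma3, at 6.30, 6.68 and 5.82, differed there by -0.48. Psma2 (11.37, 11.27 and 12.03) and Psma5 (10.08, 10.36 and 10.93) were also highest in macrophages, by less than 2-fold. A second probe set of Psma5 was higher in macrophages than in Spic-negative monocytes by 1.26, past 2-fold. Psma4 and Psma7, also alpha subunits, went the other way. Psma4 measured 11.06, 10.44 and 9.76 and was 2.47-fold lower in macrophages than in Spic-negative monocytes. Psma7 measured 11.25, 10.21 and 9.98 and was 2.41-fold lower. Its second probe set read 10.71, 10.20 and 9.19, lower by 1.52. These were the 2 members at least 2-fold lower in macrophages. Psma1, at 10.73, 10.87 and 10.33, differed by -0.39, and its further probe sets above the floor by -1.45 and -0.97. Leaving Psma8 aside, on the brightest probe sets Psma3 and Psma6 were 2-fold higher, Psma4 and Psma7 2-fold lower, and Psma1, Psma2 and Psma5 differed by less.

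The beta subunits that carry no active site differed little. Psmb1 measured 11.19, 10.88 and 10.94, Psmb2 10.26, 10.27 and 10.35, Psmb3 10.93, 11.49 and 11.78, and Psmb4 11.25, 10.99 and 11.60. None of these 4 genes passed 2-fold in any comparison. Against Spic-negative monocytes 19.6% of all genes were 2-fold higher in macrophages and 11.3% lower. The largest difference among the 4 was that of Psmb3, 1.80-fold higher in macrophages than in Spic-negative monocytes. A second probe set of Psmb3 did not show it, with 10.44, 10.26 and 10.29.

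All 3 constitutive catalytic subunits were highest in macrophages. Psmb5, the chymotrypsin-like subunit, measured 10.13, 9.90 and 11.15. Psmb6, the caspase-like subunit, measured 9.89, 9.66 and 10.48. Psmb7, the trypsin-like subunit, measured 7.68, 8.04 and 9.67. Psmb7 had the largest difference of all members above the floor between macrophages and Spic-negative monocytes, 3.96-fold, while Psmb5 was 2.03-fold and Psmb6 1.51-fold higher. Each has 1 probe set, so these values have no second reading.

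The immunoproteasome subunits that take their places were level, with 1 exception. Psmb8, which replaces Psmb5, measured 11.32, 11.43 and 11.13. Psmb10, which replaces Psmb7, measured 11.01, 11.17 and 11.03. The 3 arrays thus lay within 0.30 of each other for Psmb8 and within 0.17 for Psmb10. Psmb9, which replaces Psmb6, measured 10.39, 10.45 and 11.33, and was 1.92-fold higher in macrophages than in Spic-negative monocytes. Psme1, a chain of the PA28 activator that opens the core particle, measured 11.70, 11.68 and 11.22 and was lower in macrophages by 0.47. The probe set shared by Psme2 and Psme2b, the first of which encodes the other PA28 chain, read 11.46, 11.88 and 11.57. Of the 4 members 0 passed 2-fold in any comparison. Against Spic-negative monocytes 19.6% of all genes were 2-fold higher in macrophages and 11.3% lower, and against Spic-positive monocytes 22% and 11.6%. The lowest of all values of the 4 members was 10.39, so each was far above the floor in monocytes as well. A dimmer probe set of Psmb8 read 6.81, 6.85 and 7.46 and differed in the other direction, by 0.65.

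Levels of different probe sets cannot be set against each other, but the change of their difference between arrays can. From Spic-negative monocytes to macrophages, the ratio of Psmb10 to Psmb7 was 3.90-fold lower and that of Psmb8 to Psmb5 2.31-fold lower, while the ratio of Psmb9 to Psmb6 was 1.27-fold higher. From Spic-positive monocytes to macrophages the ratios of Psmb10 to Psmb7 and Psmb8 to Psmb5 were 3.42-fold and 2.93-fold lower, and that of Psmb9 to Psmb6 differed by 0.06 log2. Between the monocyte arrays the changes of the log2 ratio were 0.34 for Psmb8 to Psmb5, 0.29 for Psmb9 to Psmb6 and -0.19 for Psmb10 to Psmb7. With the probe sets of Psmb8 averaged, the change of its log2 ratio to Psmb5 from Spic-negative monocytes to macrophages was -0.79 in place of -1.21. In RNA, the constitutive genes thus gained on their immunoproteasome counterparts in macrophages for 2 of the 3 pairs. The subunit make-up of the proteasomes themselves was not measured.

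**Figure D3:**
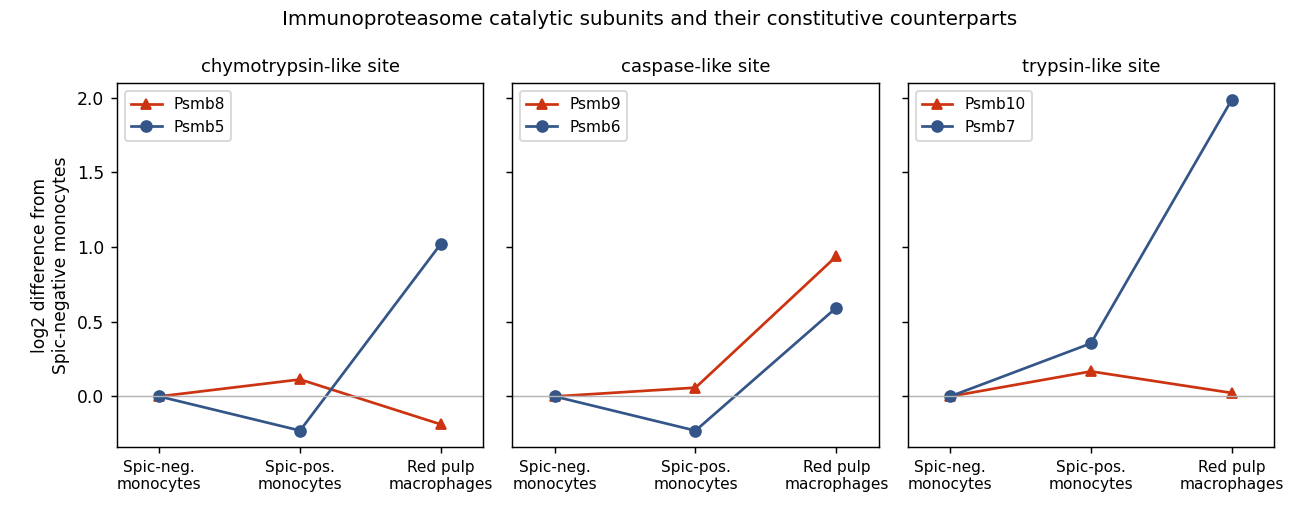
Log2 difference from Spic-negative monocytes (vertical axis) of each immunoproteasome catalytic gene (red triangles) and its constitutive counterpart (blue circles) on the 3 arrays, with lines joining values of 1 gene. In macrophages Psmb7 and Psmb5 stand at 1.99 and 1.02 while Psmb10 and Psmb8 stand at 0.02 and -0.19, and Psmb9 and Psmb6 stand at 0.94 and 0.59.

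The ATPases of the regulatory particle, which unfold the substrate, were divided by the 2-fold line, 3 to each side. In macrophages 3 of the 6 were at least 2-fold higher than in Spic-negative monocytes, where 19.6% of all genes were. Psmc1 measured 9.04, 8.92 and 10.77 and was 3.32-fold higher in macrophages than in Spic-negative monocytes and 3.59-fold higher than in Spic-positive monocytes, the largest difference among members in the latter comparison. Its other probe set lay below the floor on all 3 arrays, at 2.73, 2.52 and 2.53, and averaging both gave differences of 0.77 and 0.93, under 2-fold. Psmc2 (10.50, 10.59 and 11.63) was 2.19-fold and Psmc3 (10.23, 9.97 and 11.25) 2.03-fold higher than in Spic-negative monocytes. A second probe set of Psmc2 gave 10.09, 9.88 and 11.49. The other ATPases stayed under 2-fold. Psmc5 measured 9.38, 8.91 and 9.85, Psmc4 10.51, 10.46 and 10.56, and Psmc6 9.51, 9.76 and 9.39. The direction of Psmc6 depends on the probe set, since another read 7.80, 7.64 and 8.63.

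Among the 11 non-ATPase subunits, 9 were above 0 against Spic-negative monocytes (51.8% of all genes were) and 3 at least 2-fold higher (19.6% of all genes were). Psmd12, a lid subunit, measured 9.0, 8.89 and 10.33 (2.52-fold higher), and Psmd7, the partner of the deubiquitinating subunit, measured 7.34, 7.58 and 8.58 (2.37-fold). Psmd11, another lid subunit, measured 9.91, 9.92 and 10.92 (2.02-fold), but its probe sets disagreed, and 1 of them read 9.17, 9.35 and 7.40. Under the median of its probe sets Psmd11 was lower in macrophages, by 0.76. Psmd14, the deubiquitinating subunit itself, measured 10.39, 10.74 and 11.20, and Psmd4, a ubiquitin receptor, 10.68, 10.23 and 11.29. Further probe sets of Psmd4 differed between macrophages and Spic-negative monocytes by only 0.03 and -0.12. Psmd1 and Psmd2, the large scaffold subunits, measured 9.31, 9.37 and 9.74 and 10.39, 10.15 and 10.73. The lid subunits Psmd3 (8.63, 8.45 and 9.24) and Psmd13 (8.70, 8.34 and 9.09) were likewise highest in macrophages by less than 2-fold. Further probe sets of Psmd13 above the floor differed from Spic-negative monocytes by 0.17 and -0.24 in macrophages. Psmd8 (10.40, 9.85 and 10.37) was level between macrophages and Spic-negative monocytes. Psmd6 (10.23, 9.73 and 9.56) was lowest in macrophages on its brighter probe set and highest on the other, at 9.73, 9.35 and 10.05.

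The chaperones that build the complex are not parts of the finished proteasome. For the core particle, Psmg1 measured 7.38, 7.21 and 8.74 and was 2.58-fold higher in macrophages than in Spic-negative monocytes. Its partner Psmg2 measured 8.05, 8.11 and 7.90 on the brighter probe set and 7.40, 7.51 and 8.49 on another. The other chaperone pair, Psmg3 and Psmg4, measured 8.18, 7.97 and 9.11, and 8.36, 8.40 and 8.69. For the regulatory particle, Psmd9 measured 7.62, 7.24 and 8.59, Psmd5 7.56, 7.77 and 8.14, and Psmd10 7.59, 7.04 and 8.06. All 3 were highest in macrophages, and Psmd9 and Psmd10 passed 2-fold against Spic-positive monocytes only. The median of the probe sets turned the direction of Psmd9 against both monocyte populations, to -0.55 against Spic-negative and -0.44 against Spic-positive monocytes.

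The remaining regulators differed among themselves. Psme3, the nuclear activator PA28 gamma, measured 6.98, 6.74 and 8.52 and was 2.92-fold higher in macrophages than in Spic-negative monocytes. A further probe set of Psme3, at 4.92, 5.27 and 6.16, was higher by 1.24, and the dimmest was lower by 0.50. Psmf1, known as an inhibitor of the isolated core particle, measured 7.99, 7.76 and 9.18, and its 3 probe sets above the floor were all higher, by 1.19, 1.12 and 1.24. Psme4, an activator of the core particle with a role in sperm development, measured 10.31, 9.92 and 10.05, and its 6 probe sets above the floor were all lower in macrophages than in Spic-negative monocytes, by 0.26 to 1.36.

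Across the members, 39 further probe sets above the floor belonged to 23 genes. Against Spic-negative monocytes 64.1% of them moved in the direction of the gene's brightest probe set, where 70.0% of 9399 further probe sets did over all genes. Against Spic-positive monocytes 21 of 39 (53.8%) did, where 66.9% did over all genes. Where the gene was 2-fold different from Spic-negative monocytes, 9 of 14 agreed in direction and 6 of 14 also passed 2-fold. All probe sets on an array read the same RNA, so their agreement says nothing of variation between animals.

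**Figure D4:**
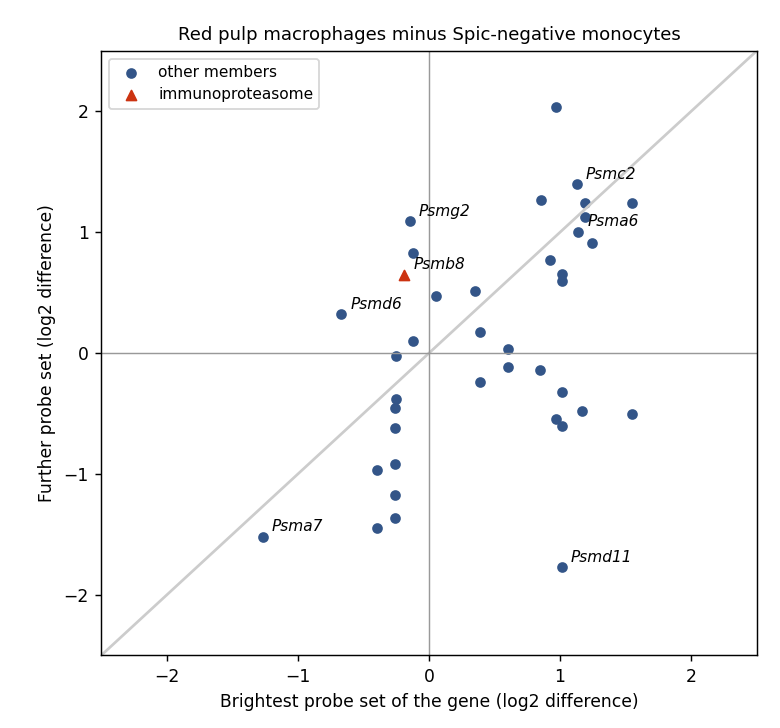
For macrophages against Spic-negative monocytes, the log2 difference of each further member probe set above the floor (vertical axis, 39 points) against that of the gene's brightest probe set (horizontal axis), with the line of equality in grey. Points for Psma7, Psmc2 and the further probe set of Psma6 lie near the line, and 1 probe set of Psmd11 lies at -1.77 where the brightest lies at 1.01.

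On the brightest probe set of each gene, the monocyte populations had nearly the same proteasome levels. Most other genes were also close, since 11564 of the 12375 genes above the floor differed by less than 2-fold between these arrays. With Spic-negative monocytes as the base, 0 of 46 members were higher by 2-fold or more on the Spic-positive array, against 3.49% of all genes, and 1 was lower by as much, against 3.06%. Past 1.5-fold, 2 were lower, against 12.6% of all genes. That member was Psma7, 2.05-fold lower, and its difference of -1.04 came to -0.77 with its probe sets averaged, -0.92 by quantile normalization and -0.90 by cyclic loess, under 2-fold in each. The median standard member differed by -0.18, against -0.06 for all genes, and 18 of the 46 members lay above 0, where 45% of all genes did. The sign turned under at least 1 alternative for 18 of the 46. Besides Psma7, Psma4 differed by -0.62, Psmb3 by 0.55, and the other members above the floor by less than 0.55 in either direction. The second probe set of Psmb3 differed by -0.18. With the median of a gene's probe sets, Psmd4 and Psmf1 differed by -1.28 and -1.10, past 2-fold. Psmb8, Psmb9, Psmb10 and Psme1 differed by 0.11, 0.06, 0.17 and -0.01. B cell markers were at least 2-fold higher on the Spic-positive array for 8 of 9 genes, against 3.49% of all genes. The part of B cells in these values was not tested.

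Genes that use or control the proteasome were taken from lists. Of 12 class I presentation genes, 0 passed 2-fold between the monocyte arrays, where 3.49% of all genes were higher and 3.06% lower. Against Spic-negative monocytes, 2 (16.7%) were at least 2-fold higher in macrophages and 0 lower, where 19.6% and 11.3% of all genes were. The higher genes were Tap2, the other chain of the peptide transporter (8.51, 8.88 and 9.59), and Erap1, which trims peptides (7.96, 7.34 and 9.14). Tap1, which shares the DNA before Psmb9, measured 10.26, 10.60 and 10.20, so that it did not follow Psmb9 in macrophages. B2m, the light chain of class I, measured 13.77, 13.97 and 13.64. Nlrc5, the transactivator of class I genes, was highest in Spic-positive monocytes, at 9.46, 10.30 and 9.17, and was lower in macrophages than there by 1.13.

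Of 7 interferon gamma signalling genes, 6 had a value. In macrophages against Spic-negative monocytes, 2 (33.3%) were at least 2-fold higher and 2 (33.3%) lower, where 19.6% and 11.3% of all genes were. The factors Irf1 (10.65, 10.96 and 11.75) and Irf8 (11.08, 11.06 and 12.14) were higher. The receptor chains were lower, with Ifngr1 at 11.68, 11.48 and 10.43 and Ifngr2 at 11.02, 10.87 and 7.22. The receptor and factor genes therefore differed in direction. Jak1 and Jak2, the receptor's kinases, differed by -0.66 and -0.29.

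Among 6 regulators of proteasome gene expression, 5 had a value. Of these 5, 1 (20.0%) was at least 2-fold higher in macrophages than in Spic-negative monocytes, a share near the 19.6% of all genes. That gene was Nfe2l1, which raises proteasome genes when the proteasome is impaired, and it measured 8.46, 8.09 and 9.60. Ngly1, the deglycosylating enzyme that acts on the Nfe2l1 protein, measured 9.15, 8.71 and 9.98. Nfe2l2, the related factor of the oxidant response, ran the other way, at 11.48, 11.79 and 10.77. Akirin2, which brings proteasomes into the nucleus, measured 10.12, 9.98 and 10.62, and Vcp, the ATPase that extracts ubiquitin-tagged proteins, 11.25, 11.20 and 11.32.

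Proteasome partners that lie outside the Psm symbols had a median of -0.22 in macrophages against Spic-negative monocytes, where all genes had 0.03. Of 14, 11 had a value, and 0 were at least 2-fold higher and 3 (27.3%) lower, where 19.6% and 11.3% of all genes were. Pomp, the maturation protein of the core particle, measured 11.68, 11.66 and 10.60. Ecpas, which tethers core and regulatory particle, measured 8.49, 8.49 and 7.37, and Ubqln2, a shuttle for ubiquitin-tagged proteins, 10.19, 9.98 and 8.92. These were the 3 lower genes. Sem1, a small lid subunit, measured 12.44, 12.26 and 11.50. The proteasome-bound deubiquitinases differed in direction, with Uchl5 at 8.39, 8.0 and 9.37 and Usp14 at 8.46, 8.65 and 8.24. Uba6, a ubiquitin-activating enzyme and the 1 gene of 6 on the ubiquitin list with a value, measured 7.90, 7.60 and 7.30.

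**Figure D5:**
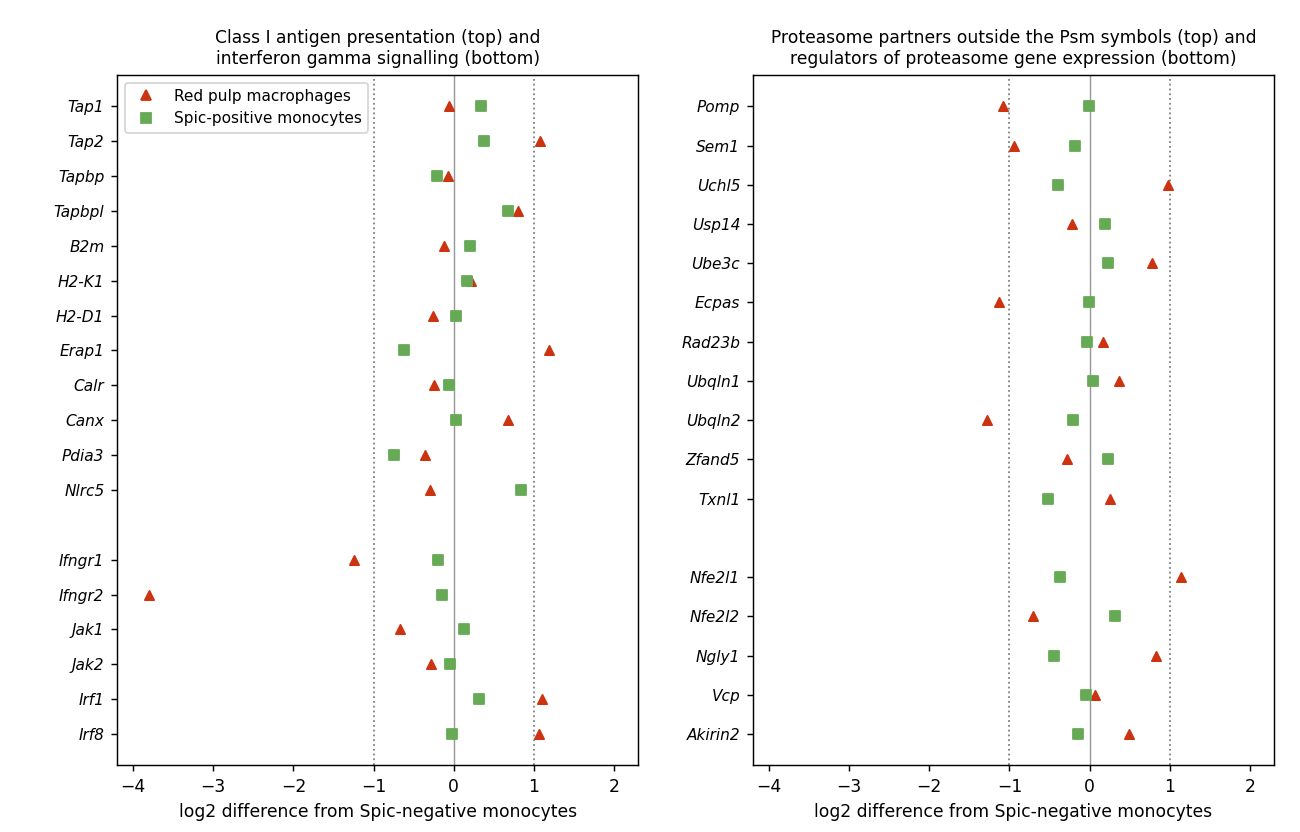
Log2 difference from Spic-negative monocytes (horizontal axis) of listed genes outside the proteasome symbols in macrophages (red triangles) and Spic-positive monocytes (green squares), with dotted lines at 2-fold. In macrophages Nfe2l1, Irf1, Irf8, Tap2 and Erap1 pass 2-fold upwards and Pomp, Ecpas, Ubqln2, Ifngr1 and Ifngr2 downwards. None of these genes passes 2-fold in Spic-positive monocytes, where 3.49% of all genes are higher and 3.06% lower.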

How the data were processed

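The authors deposited log2 values for each probe set, made with RMA per the submitters' processing notes on 3 arrays after 2-cycle amplification, per the labels' protocols. No RMA version is given there, and the log2 scale was read from the values (1.82 to 14.50). RMA's quantile step hides differences in total RNA per cell, and amplification over 2 cycles favours 3′ ends. Of 45037 probe sets other than controls, 34945 had 1 symbol, and each gene was read from its brightest probe set by mean over all 3 arrays. Symbols were updated with a GRCm38.p6 gene table, used otherwise only for gene order and the edges of the printed sequences. Differences were counted at 2-fold with no test, since each group had 1 array. Members and lists were chosen with earlier results of these data known. The genes named are all members, members of the lists and the genes of the sort. The steps were checked on simulated arrays. Alternatives were the mean or median of probe sets, centring, quantile normalization, cyclic loess, other floors, no _x_at or _s_at probe sets, a threshold of 1.5-fold and, added after seeing the data, leaving out Psma8. Python 3.11.15, pandas 2.3.3, numpy 2.4.6, R 4.3.3 and limma 3.58.1 were used.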

Additional observations from a re-analysis of the deposited data

How the results depend on the processing

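With the mean of a gene's probe sets, the median standard member was higher in macrophages by 0.46 against Spic-negative and 0.54 against Spic-positive monocytes, with 8 (17.4%, against 16.4% of all genes) and 10 members (21.7%, against 18.0%) at least 2-fold higher, and 0 members were 2-fold lower in Spic-positive than Spic-negative cells. With the median of probe sets the first value was 0.49, with 4 members (8.70%, against 12.3% of all genes) 2-fold lower in macrophages and 2 (4.35%, against 3.28%) in Spic-positive monocytes. Both rules also take in probe sets below the floor. Under either rule the immunoproteasome medians were 0.13 and 0.0040, and the change of the Psmb8 to Psmb5 ratio was -0.79 and -1.10. Of the 46 members, 7 changed sign under at least 1 alternative against Spic-negative monocytes and 10 against Spic-positive monocytes in the macrophage comparisons, and 18 between the monocyte arrays. Of those at least 2-fold different, Psmd11 reversed against Spic-negative monocytes (-0.76, median) and Spic-positive monocytes (-0.33, mean, and -0.77, median), and Psmd9 against Spic-positive monocytes (-0.44, median). Centring moved the median of all genes between macrophages and Spic-positive monocytes from 0.10 to 0.23, the standard median to 0.90 and the immunoproteasome median to -0.10. Quantile normalization moved the median of all genes there to -0.03 and the standard median to 0.61, with 11 members (23.9%, against 18.6% of all genes) 2-fold higher, and the Psmb10 to Psmb7 change to -1.67 (-1.62 by cyclic loess). Between the monocyte arrays the standard median was -0.036 by quantile normalization and -0.018 by cyclic loess, which moved all genes to 0.04 and the immunoproteasome median to 0.20, with 0 members 2-fold lower under both. By cyclic loess the immunoproteasome median in macrophages against Spic-negative monocytes was 0.030. At 1.5-fold, 24 members were higher in macrophages than in Spic-negative monocytes, 1 was lower than in Spic-positive monocytes, and 2 were lower in Spic-positive monocytes when set against Spic-negative ones. The causes were not tested. No alternative tried turned the standard median in either macrophage comparison below 0. No paired analysis was possible because each group had 1 array.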
